A study of Mus musculus with 9 samples.

Results

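The genes described here encode cytosolic sensors of RNA and DNA other than cGAS, together with the adaptor that the RNA sensors share. They were chosen by gene name: Ddx58, Ifih1, Dhx58, Mavs, Zbp1, Aim2, Ddx41, Dhx9 and Dhx36. These 9 genes were among 39179 genes listed in the count table, and all 9 were among the 13819 genes that passed a filter on low counts, so none was lost to it. RNA was sequenced from cDC1 (CD8pos), cDC2 (CD8neg) and pDC sorted from the spleens of C57BL/6J mice at steady state, with 3 libraries per subset. Each library came from cells pooled from 15 to 17 animals, no agent was given and no allele was altered. The study's methods give an age of 6 to 12 weeks for its mice in general. The comparisons asked how far the resting level of each sensor transcript differed between the 3 subsets.

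RIG-I (Ddx58), MDA5 (Ifih1) and LGP2 (Dhx58) form the RIG-I-like receptor (RLR) family of RNA helicases, which bind viral double-stranded RNA. RIG-I and MDA5 signal through MAVS on the outer mitochondrial membrane to induce type I interferon, whereas LGP2 lacks the signalling domain and modulates the others. ZBP1 binds Z-form nucleic acid and can trigger cell death through RIPK3, AIM2 assembles an inflammasome on cytosolic DNA, and DDX41, DHX9 and DHX36 are helicases with general roles in RNA metabolism that have also been described as nucleic acid sensors in dendritic cells. Many of these genes, the RLR genes and Zbp1 among them, are themselves induced by interferon.

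Total counts on genes ranged from 15806597 to 32453789 per library, and replicate 3 had the lowest total in each subset. Levels are given as CPM, the counts of a gene per 1000000 counts of TMM-scaled library size. The genes for the surface proteins used in the sort followed the labels. Cd8a lay between 1310 and 1676 CPM in cDC1, between 18.1 and 24.6 CPM in cDC2 and between 274 and 379 CPM in pDC. Itgam lay between 221 and 248 CPM in cDC2 and reached at most 15.8 CPM elsewhere. Bst2 lay between 2176 and 2499 CPM in pDC and reached at most 93.8 CPM elsewhere. All 8 pDC markers were higher in pDC than in either cDC subset, and 7 of 8 cDC1 markers and 6 of 6 cDC2 markers differed between cDC1 and cDC2 in the labelled direction. In pDC against cDC1, 7 of the cDC1 markers were lower and 1 was higher (Irf8, means of 4244 and 2556 CPM). In pDC against cDC2, 4 of the cDC2 markers were lower and 1 was higher (Cd4, means of 1369 and 399 CPM). The cDC markers were not restricted to their own subset. Of the 8 cDC1 markers, 4 were higher and 4 lower in pDC than in cDC2. Of the 6 cDC2 markers, 3 were higher and 2 lower in pDC than in cDC1. Markers of other cells were also read, none of them at 0 in all libraries. The summed level of 6 NK cell markers was 8.51 to 28.0 CPM in cDC1, 20.7 to 84.8 CPM in cDC2 and 10.3 to 46.7 CPM in pDC, and replicate 3 was the highest in each subset. The T cell gene Cd3e averaged at most 0.403 CPM and the neutrophil gene Ly6g at most 0.128 CPM in any subset. Some other genes of these lists were higher. In cDC2, Cd5 lay between 27.2 and 32.7 CPM and S100a9 between 10.7 and 19.3 CPM. Over all libraries the T cell list summed to between 14.9 and 88.7 CPM and the neutrophil list to between 3.75 and 119 CPM. The 6 erythroid markers summed to between 36.6 and 67.9 CPM in all libraries. In sorted bulk RNA of this kind, fewer cells expressing a gene and less RNA per cell cannot be told apart.

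Across the subsets, 6 of the 9 sensor genes differed (Ddx58, Ifih1, Dhx58, Mavs, Zbp1 and Aim2), against 56.0% of all genes tested. A gene was called where its p from edgeR's quasi-likelihood test, adjusted over all genes by Benjamini-Hochberg, was under 0.05. The differences lay mainly between cDC2 and the other subsets. In cDC2 against cDC1, 3 of 9 members were higher (Ddx58, Ifih1 and Zbp1) and 0 were lower, against 12.7% higher, 11.7% lower and 24.4% in either direction for all genes. In pDC against cDC2, 5 members were lower (Ddx58, Ifih1, Dhx58, Zbp1 and Aim2) and 1 was higher (Mavs), against 23.3% lower, 22.5% higher and 45.8% in all. In pDC against cDC1, 1 member was lower (Dhx58) and 0 were higher, against 24.4% lower, 24.3% higher and 48.6% in all, so the share of members called there was below that of all genes. Mavs and Ddx41 had their highest mean in pDC, Dhx36 had its highest in cDC1, and the other members had theirs in cDC2.

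The median log2 fold change of the members was 0.24 in cDC2 against cDC1, where it was 0.027 over all genes tested. It was -0.63 in pDC against cDC2 (all genes -0.0088) and -0.070 in pDC against cDC1 (all genes 0.018). The 3 libraries of one subset lay wholly above or below those of the other for 5 members in cDC2 against cDC1 (44.5% of all genes), for 7 in pDC against cDC2 (56.1%) and for 2 in pDC against cDC1 (58.6%). Library number carried the same date code in each subset and the numbers paired the libraries, so a fit with the replicate number as a block was set beside the main one. With the block, 4 members rather than 1 were called in pDC against cDC1, but 58.6% of all genes were called in that fit, so the share of members was again the lower. This did not hold without replicate 3, where 63.0% of all genes were called and the share of members was not below that. The count of members in that fit is given in the last section. The members whose calls changed are given below. Scaling by library size alone moved the median of all genes by 0.090 (pDC against cDC1) and 0.110 (cDC2 against cDC1) on the log2 scale, and in the latter it changed the split of called genes from 1760 higher and 1610 lower to 2204 higher and 1287 lower.

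**Figure D1:**
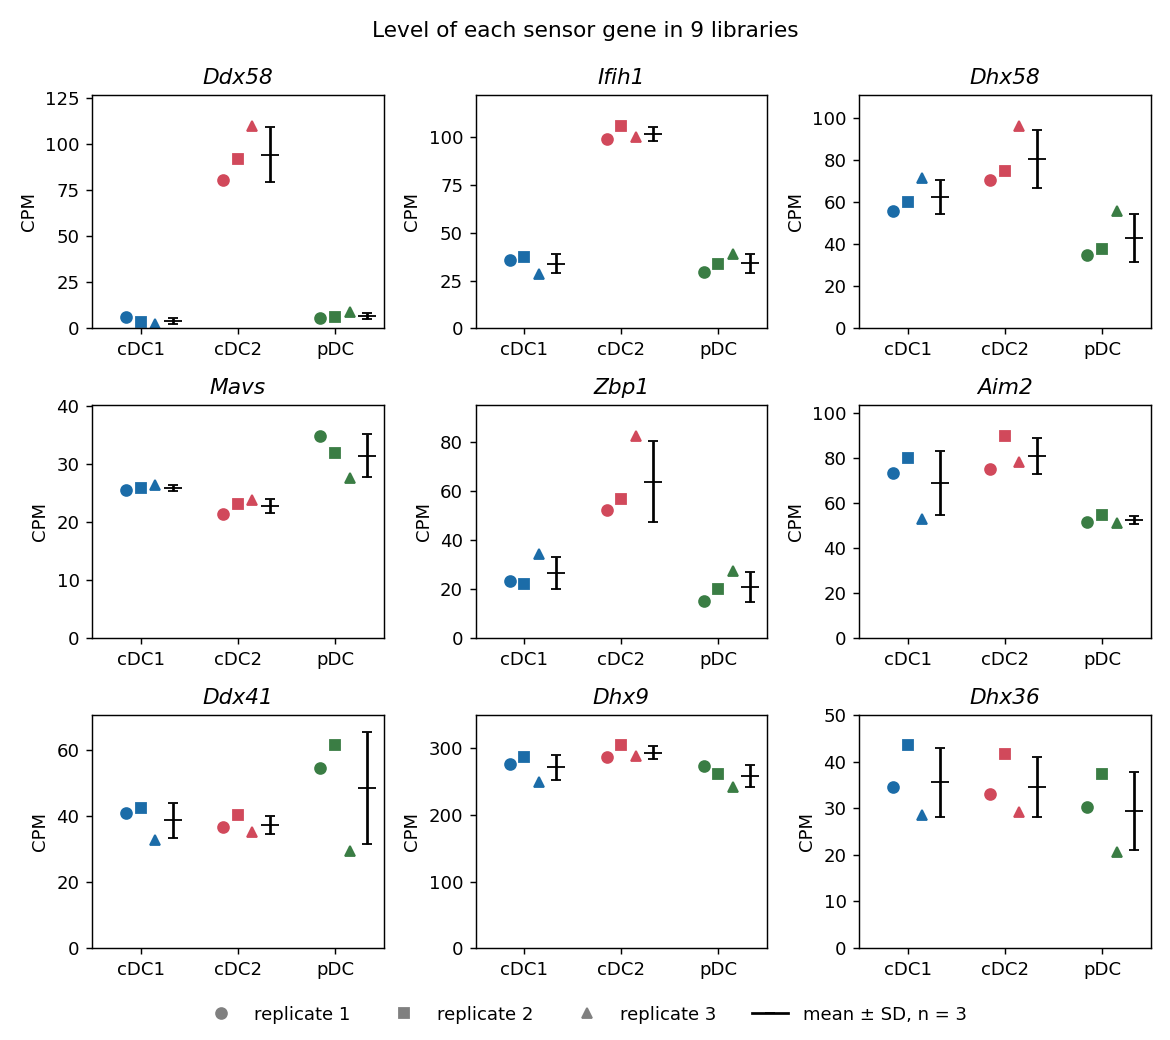
Each panel shows 1 sensor gene, with the subset on the horizontal axis and CPM on a linear vertical axis that starts at 0. Points are libraries (shape gives the replicate) and the black bar is the mean ± SD of 3. Ddx58, Ifih1 and Zbp1 stand highest in all cDC2 libraries, while the libraries of Dhx36 overlap between all subsets.

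Ddx58, the gene for RIG-I (ENSMUSG00000040296, chromosome 4, 40203773 to 40239828, minus strand, GRCm38), showed the widest range. Its levels were 5.90, 3.63 and 2.57 CPM in cDC1 replicates 1 to 3, 80.4, 91.9 and 109.8 CPM in cDC2, and 5.69, 6.34 and 8.78 CPM in pDC. All cDC2 libraries were far above all others, and the cDC1 and pDC libraries overlapped. The fitted level was 22.8-fold higher in cDC2 than in cDC1 (log2 fold change 4.51 ± 0.30 SE, 95% CI 3.83 to 5.19, adjusted p = 8.2e-06). Of all genes tested, 0.883% had a larger absolute fold change in that comparison. Against cDC2, pDC was 13.6-fold lower (log2 fold change -3.77 ± 0.29, adjusted p = 4.54e-06).

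The same gene was 1.67-fold higher in pDC than in cDC1 in the fit, which did not pass the threshold (log2 fold change 0.74, 95% CI 0.10 to 1.38, adjusted p = 0.0561). The cDC1 value rests on 162, 87 and 38 reads, the lowest counts of any member. Within replicate numbers the log2 ratio of pDC to cDC1 was -0.053, 0.80 and 1.77, so the libraries of replicate 3 differed most. The comparison passed the threshold with DESeq2 (adjusted p = 0.0311), with library size alone (0.0367), with no filter (0.0420) and without cDC1 replicate 1, where the log2 fold change was 1.13 (adjusted p = 0.00778).

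Ifih1, which encodes MDA5 (ENSMUSG00000026896, chromosome 2, 62595798 to 62646255, minus strand), followed the same order with a smaller range. It was measured at 35.9, 37.3 and 28.3 CPM in cDC1, at 99.2, 106 and 99.98 CPM in cDC2 and at 29.4, 33.6 and 39.0 CPM in pDC. The cDC2 libraries were again all above the rest, and cDC1 and pDC overlapped throughout. It was 3.00-fold higher in cDC2 than in cDC1 (log2 fold change 1.59 ± 0.14, adjusted p = 4.34e-05) and 3.00-fold lower in pDC than in cDC2 (-1.58 ± 0.14, adjusted p = 1.35e-05). Between pDC and cDC1 the log2 difference was 0.0032 (95% CI -0.31 to 0.32, adjusted p = 0.988). The sign of this last value was not stable: without the 3 libraries of replicate 3 it was -0.25 (adjusted p = 0.0443).

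Dhx58, the gene for LGP2 (ENSMUSG00000017830, chromosome 11, 100694884 to 100704271, minus strand), had levels of 55.9, 59.8 and 71.3 CPM in cDC1, 70.4, 74.5 and 96.1 CPM in cDC2, and 34.8, 37.6 and 55.8 CPM in pDC. In contrast to the other RLR genes, cDC1 stood close to cDC2 and pDC was lowest, with all pDC libraries below those of both cDC subsets. Its level was 1.88-fold lower in pDC than in cDC2 (log2 fold change -0.91 ± 0.20, adjusted p = 0.00416). It was 1.46-fold lower in pDC than in cDC1 (-0.55 ± 0.20, adjusted p = 0.0453), and this call was lost in 11 of 19 alternatives, where the adjusted p reached 0.148. With the replicate block it held at -0.57 (adjusted p = 0.00047).

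In cDC2 against cDC1 the log2 difference of Dhx58 was 0.37 (95% CI -0.077 to 0.81, adjusted p = 0.230), with overlapping libraries. With the replicate block it was 0.36 and passed the threshold (adjusted p = 0.0106). In each subset Dhx58 was higher in replicate 3 than in the mean of replicates 1 and 2, by 0.30, 0.41 and 0.63 on the log2 scale in cDC1, cDC2 and pDC. An antisense gene, Dhx58os, overlaps 4.31% of the annotated exon bases of Dhx58 and averaged 0.333 counts per library.

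**Figure D2:**
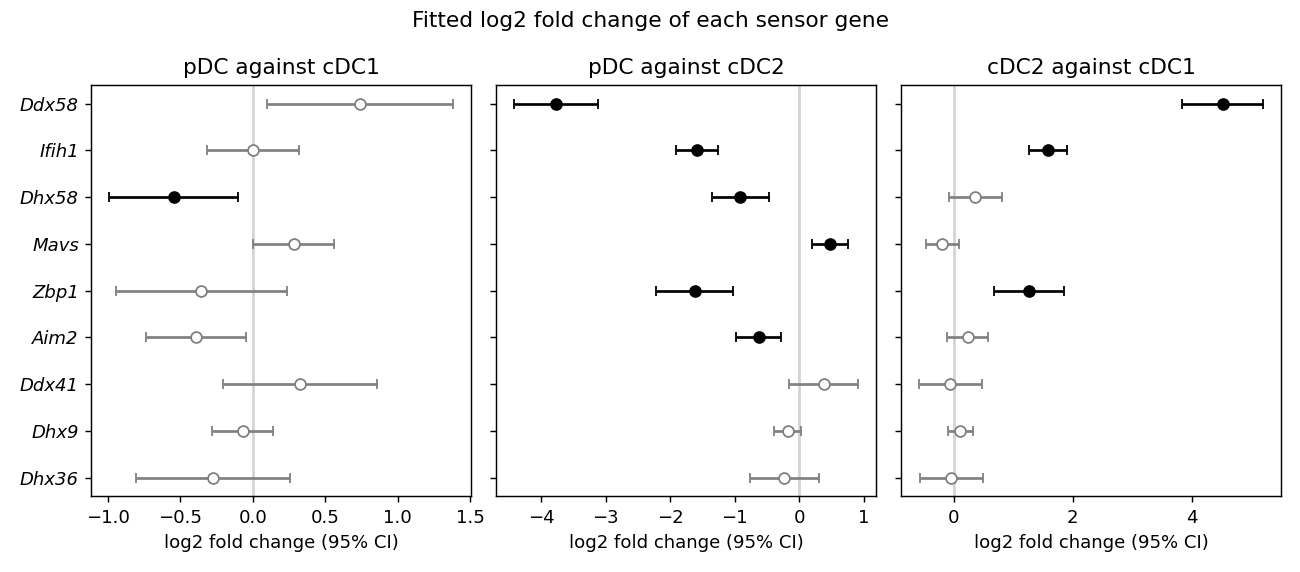
Each panel is 1 comparison, with the fitted log2 fold change of each sensor gene on the horizontal axis (scales differ between panels) and bars for the 95% CI. Filled points have an adjusted p under 0.05. Ddx58 reaches 4.51 in cDC2 against cDC1, while in pDC against cDC1 the only filled point is Dhx58 at -0.55.

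Because the RLR genes differ in transcript length (3874 bases for Ddx58, 5470 for Ifih1 and 2412 for Dhx58, taking the longest coding transcript), their levels were compared with each other only per length, as TPM (counts per kb of that transcript, scaled to a sum of 1000000 in each library). On that scale Dhx58 made up 77.9 ± 4.93% (SD, n = 3) of the summed RLR level in cDC1, compared with 68.5 ± 2.30% in pDC and 43.6 ± 2.24% in cDC2. Ddx58 made up 31.8 ± 1.18% in cDC2, against 3.21 ± 1.53% in cDC1 and 6.96 ± 0.0501% in pDC. The share of Ifih1 lay between 14.6% and 26.6% in every library. In every cDC2 library the share of Ddx58 was above, and that of Dhx58 below, the share in all other libraries.

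Per length, the ratio of Ifih1 to Ddx58 was 4.31, 7.28 and 7.79 in cDC1, 0.874, 0.817 and 0.645 in cDC2, and 3.66, 3.76 and 3.15 in pDC. With this length, Ifih1 therefore exceeded Ddx58 in all cDC1 and pDC libraries and was below it in all cDC2 libraries. The order in cDC2 depended on the length chosen. Taking the union of annotated exons instead, the cDC2 mean of Ifih1 was 29.8 and that of Ddx58 was 31.8. Single cDC2 libraries may then not keep the order. The sum of the 3 RLR genes per length was 139.6 ± 16.1 in cDC2, against 54.7 ± 2.47 in cDC1 and 49.5 ± 9.46 in pDC, whose libraries overlapped.

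**Figure D3:**
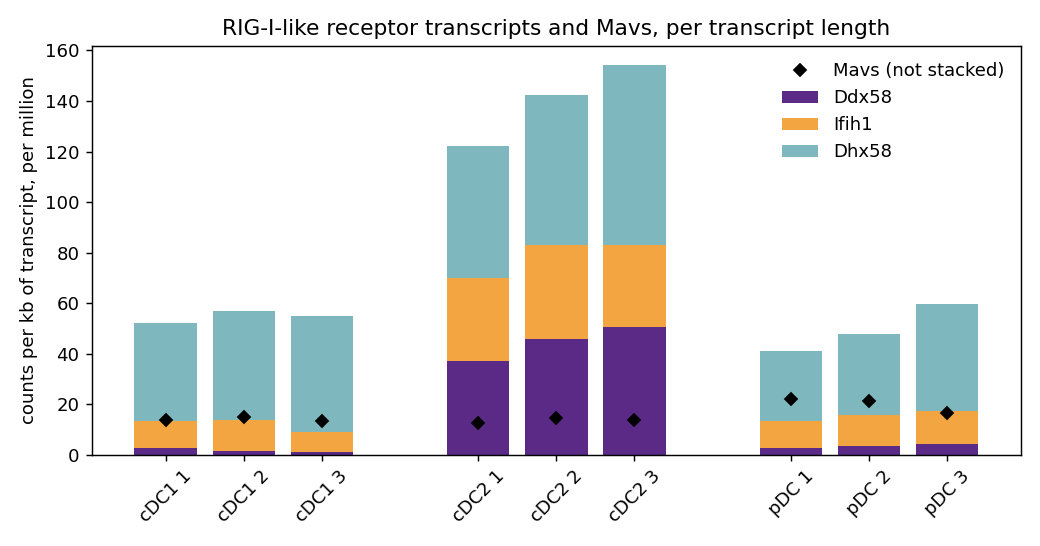
Stacked bars give the per-length level of Ddx58, Ifih1 and Dhx58 in each library (TPM, that is scaled counts per kb of transcript, on an axis that starts at 0), and diamonds give Mavs on the same axis. The cDC2 bars reach 122 to 154, against 41.2 to 59.8 in the other subsets, and Mavs stays between 12.5 and 22.1.

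The starts of the RLR genes were read for the core interferon-stimulated response element on either strand, written as GAAA, any 2 bases and GAAA (on the opposite strand TTTC, any 2 bases and TTTC), since the members that differed most are known interferon-inducible genes. RefSeq promoter windows (GRCm38.p6, 250 bases before to 50 after the start) were held for 7 of the 9 members, all but Dhx58 and Zbp1. The motif was found in 2 of the 7, Ddx58 and Ifih1, and in 3.44% of all 32851 windows. In Ddx58 it starts at base 3 of the transcript and lies on the opposite strand, and in Ifih1 it starts at base 33 and lies on the strand of the gene. The related ETS-IRF composite (GGAA, any 2 bases and GAAA, on either strand) was found in 0 of the 7 windows and in 2.72% of all windows. A match describes the letters only. The 30 bases around each match are shown because these are the members with a window that had the largest fold changes between cDC2 and the other subsets, with the motif in capitals and both read 5′ to 3′ on the minus strand, at chr4:40239804-40239833 and chr2:62646206-62646235.
Ddx58: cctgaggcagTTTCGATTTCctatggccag
Ifih1: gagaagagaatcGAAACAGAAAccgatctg

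Mavs, the adaptor through which RIG-I and MDA5 signal (ENSMUSG00000037523, chromosome 2, 131234063 to 131248025, plus strand), was highest in pDC. Its levels were 25.4, 25.9 and 26.4 CPM in cDC1, 21.4, 23.1 and 23.8 CPM in cDC2, and 34.9, 31.9 and 27.5 CPM in pDC. The 3 subsets did not overlap, with cDC2 lowest and pDC highest. The level in pDC was 1.38-fold that in cDC2 (log2 fold change 0.47 ± 0.12, adjusted p = 0.0115), and the call was lost without cDC2 replicate 1 (0.42, adjusted p = 0.0529) or without pDC replicate 1 (0.39, adjusted p = 0.0529).

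Neither of the other comparisons of Mavs passed the threshold. The log2 difference was 0.28 in pDC against cDC1 (95% CI 0.0027 to 0.56, adjusted p = 0.0890) and -0.19 in cDC2 against cDC1 (95% CI -0.47 to 0.092, adjusted p = 0.339). The former passed with library size alone (0.37, adjusted p = 0.0354), without pDC replicate 3 (0.37, adjusted p = 0.0238) and without all of replicate 3 (0.35, adjusted p = 0.0145). The summed RLR level per length was 3.90 ± 0.176 times that of Mavs in cDC1, 10.2 ± 0.787 times in cDC2 and 2.57 ± 0.922 times in pDC. The ratio was at least 9.75 in the cDC2 libraries and at most 4.10 in the others.

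Zbp1, the sensor of Z-form nucleic acid (ENSMUSG00000027514, chromosome 2, 173206612 to 173218923, minus strand), was measured at 23.6, 22.2 and 34.3 CPM in cDC1, at 52.4, 56.9 and 82.8 CPM in cDC2 and at 15.2, 20.2 and 27.3 CPM in pDC. All cDC2 libraries were above the others, and cDC1 and pDC overlapped. Replicate 3 was the highest library in each subset, by 0.58, 0.60 and 0.64 on the log2 scale over the mean of replicates 1 and 2 in cDC1, cDC2 and pDC. The fitted level was 2.40-fold higher in cDC2 than in cDC1 (log2 fold change 1.26 ± 0.26, adjusted p = 0.00612) and 3.07-fold lower in pDC than in cDC2 (-1.62 ± 0.27, adjusted p = 0.000733). In pDC against cDC1 the difference was -0.36 (95% CI -0.94 to 0.23, adjusted p = 0.297), and with the replicate block it was -0.37 and passed the threshold (adjusted p = 0.0169).

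Aim2, the DNA-binding inflammasome receptor (ENSMUSG00000037860, chromosome 1, 173350879 to 173466040, plus strand), stood at 73.3, 80.0 and 52.8 CPM in cDC1, at 74.97, 89.97 and 78.0 CPM in cDC2, and at 51.6, 54.5 and 51.0 CPM in pDC. All pDC libraries were below those of cDC2, while cDC1 overlapped with both. The level in pDC was 1.55-fold below that in cDC2 (log2 fold change -0.63 ± 0.15, adjusted p = 0.00772). The difference between pDC and cDC1 was -0.39 (95% CI -0.74 to -0.047, adjusted p = 0.0597). It passed the threshold with the replicate block (-0.38, adjusted p = 0.0177), with DESeq2 (-0.40, adjusted p = 0.0400), with upper quartile factors (-0.42, adjusted p = 0.0363), without cDC1 replicate 3 (-0.59, adjusted p = 0.00277) and without all of replicate 3 (-0.56, adjusted p = 0.00297). The 2 cDC subsets differed by 0.24 (95% CI -0.11 to 0.58, adjusted p = 0.328).

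Ddx41 (ENSMUSG00000021494, chromosome 13, 55530410 to 55536658, minus strand), a DEAD-box helicase described as a DNA sensor acting through STING, had levels of 41.0, 42.4 and 32.7 CPM in cDC1, 36.6, 40.3 and 35.1 CPM in cDC2, and 54.6, 61.4 and 29.5 CPM in pDC. In pDC, replicates 1 and 2 were above every cDC library and replicate 3 was below them all. The log2 difference was 0.33 in pDC against cDC1 (95% CI -0.21 to 0.86, adjusted p = 0.290), 0.38 in pDC against cDC2 (95% CI -0.15 to 0.91, adjusted p = 0.228) and -0.053 between the cDC subsets (95% CI -0.59 to 0.48, adjusted p = 0.913). Without pDC replicate 3 the first 2 differences were 0.58 (adjusted p = 0.00773) and 0.64 (adjusted p = 0.00523). Without all libraries of replicate 3 they were 0.44 (adjusted p = 0.00485) and 0.59 (adjusted p = 0.00137), so the outcome for Ddx41 in pDC turned on 1 library. An annotated antisense gene, Gm46416, covers 17.4% of the exon bases of Ddx41, and whether the counting used the strand is not given in the sources used here.

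Dhx9 (ENSMUSG00000042699, chromosome 1, 153455758 to 153487660, minus strand), a nuclear RNA helicase, was the most abundant member and the most even. It was measured at 277, 288 and 250.2 CPM in cDC1, at 288, 305 and 288 CPM in cDC2 and at 274, 261 and 241 CPM in pDC. The highest subset mean was 1.13 times the lowest. The log2 difference was -0.070 in pDC against cDC1 (95% CI -0.28 to 0.14, adjusted p = 0.572), -0.18 in pDC against cDC2 (95% CI -0.39 to 0.027, adjusted p = 0.141) and 0.11 in cDC2 against cDC1 (95% CI -0.096 to 0.32, adjusted p = 0.456). The pDC libraries were all below the cDC2 libraries, and with the replicate block that difference passed the threshold at -0.18 (adjusted p = 0.0326).

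Dhx36 (ENSMUSG00000027770, chromosome 3, 62468013 to 62507004, minus strand), a helicase that unwinds G-quadruplexes, had levels of 34.5, 43.5 and 28.6 CPM in cDC1, 33.1, 41.7 and 29.1 CPM in cDC2, and 30.2, 37.4 and 20.6 CPM in pDC. Replicate 2 was highest and replicate 3 lowest in each subset, and the subsets overlapped. The log2 difference was -0.27 in pDC against cDC1 (95% CI -0.81 to 0.26, adjusted p = 0.376), -0.24 in pDC against cDC2 (95% CI -0.77 to 0.30, adjusted p = 0.462) and -0.039 between the cDC subsets (95% CI -0.57 to 0.49, adjusted p = 0.937). With the replicate block the first of these was -0.29 and passed the threshold (adjusted p = 0.0400).

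**Figure D4:**
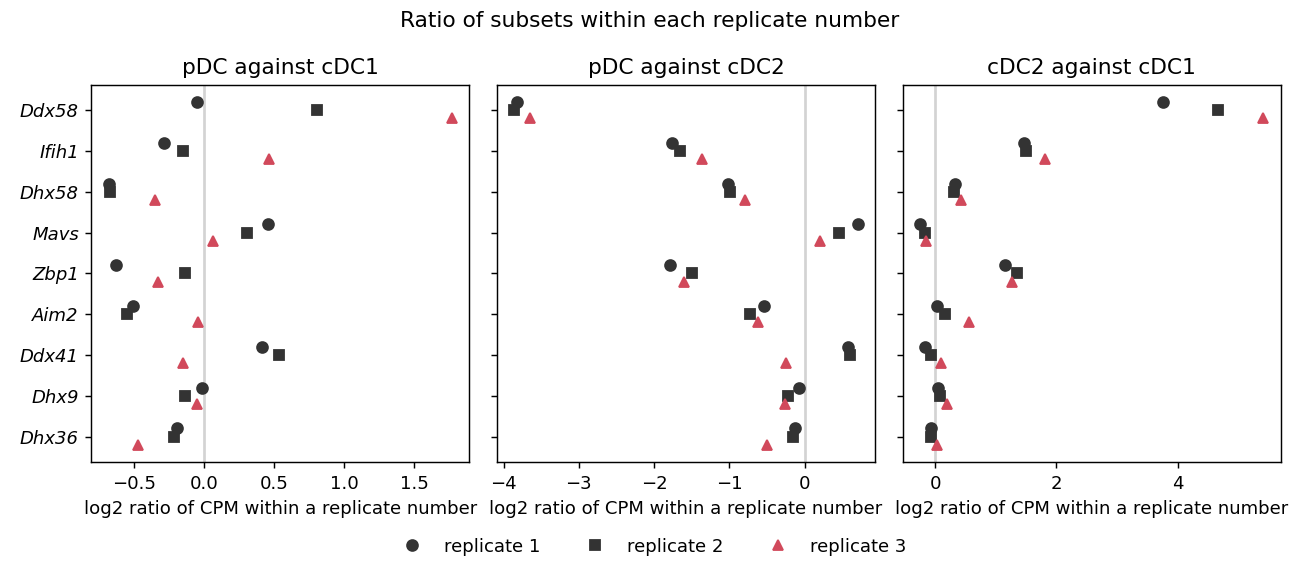
Points give the log2 ratio of CPM between 2 subsets within each replicate number, with replicate 3 in red, for each sensor gene and comparison (scales differ between panels). In pDC against cDC2, Ddx41 is at 0.58 and 0.61 in replicates 1 and 2 and at -0.25 in replicate 3. The ratios of Ddx58 stay between -3.86 and -3.64 there.

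Compared per length within a subset, Dhx9 was the highest member in each, at 97.8 ± 12.7 in cDC1, 117 ± 8.88 in cDC2 and 109 ± 10.9 in pDC (SD, n = 3). Ddx58 was the lowest of the 9 in cDC1 (1.74 ± 0.760) and in pDC (3.45 ± 0.669), but ranked 5 of 9 in cDC2 (44.5 ± 6.70), where Dhx36 was lowest (11.4 ± 2.61). In cDC1, Dhx58 (42.7 ± 3.68) and Aim2 (40.5 ± 10.5) came next and did not differ beyond their spread, and neither did Dhx58 (61.0 ± 9.37), Zbp1 (58.9 ± 13.8) and Aim2 (52.5 ± 7.41) in cDC2. In pDC, Dhx9 was followed by Ddx41 (43.1 ± 16.6), Aim2 (35.8 ± 3.11) and Dhx58 (34.1 ± 7.57), and these 3 did not differ beyond their spread. In replicate 3, the members lower than the mean of replicates 1 and 2 in each subset were 4 (Aim2, Ddx41, Dhx9 and Dhx36) and those higher were 2 (Dhx58 and Zbp1).

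The genes whose pattern over the 9 libraries was most like that of each member were named as a description, with 10481 genes compared by Pearson's r of log2(CPM + 1). These points share libraries and depth. For Ddx58 they were Gm4955 (r = 0.994) and Themis2 (0.991), for Ifih1 Scel (0.990) and St3gal2 (0.988), and for Zbp1 Ccrl2 (0.984) and Hspb6 (0.977). Each of these 6 genes had its highest mean in cDC2, as with Scel at 12.9 CPM in cDC2 and 0.167 and 0.148 CPM in cDC1 and pDC. For Dhx58 the genes were Fam49b (0.983) and Egr1 (0.982), for Mavs Asb13 (0.972) and Slc25a23 (0.963), and for Aim2 Fancm (0.976) and 2010315B03Rik (0.958). For Ddx41 they were Tsc2 (0.968) and Hnrnpl (0.962), for Dhx9 Diap2 (0.977) and AA987161 (0.971), and for Dhx36 Ambra1 (0.981) and Rmnd1 (0.973). Between members, r was highest for Ddx58 and Ifih1 (0.981).

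Genes that act on the RLR proteins were called in both directions. Counts in this list and those that follow are to be read against the shares of all genes. These were 24.3% higher and 24.4% lower in pDC against cDC1, and 22.5% higher and 23.3% lower in pDC against cDC2. In cDC2 against cDC1 they were 12.7% higher and 11.7% lower. Whether a list differed from these shares was not tested. Of 13 activators and cofactors, 3 were higher and 4 lower in pDC against cDC1, 3 higher and 4 lower in pDC against cDC2, and 1 higher and 3 lower in cDC2 against cDC1. Trim25, the ubiquitin ligase that activates RIG-I, rose in pDC by 1.24 ± 0.10 on the log2 scale over cDC1 (adjusted p = 6.18e-06) and by 1.23 ± 0.10 over cDC2 (7.51e-06), and Trim65, a ligase for MDA5, by 0.64 ± 0.13 over each. Ddx60, a helicase reported to aid the RLRs, rose in cDC2 over cDC1 (4.10 ± 0.54, adjusted p = 0.000426) and was lower in pDC than in cDC2 (-2.40 ± 0.49, adjusted p = 0.00283). Prkra, the gene for PACT, was highest in cDC1 (cDC2 against cDC1 -1.21 ± 0.20, pDC against cDC1 -1.23 ± 0.20), and so was the deacetylase gene Hdac6 (-0.69 ± 0.20 and -1.37 ± 0.20). Without replicate 3, the count in cDC2 against cDC1 was 4 higher and 3 lower.

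Of 20 listed inhibitors of the RLRs and MAVS, 19 were tested. In pDC against cDC1 4 were higher and 5 lower (6 and 8 without replicate 3), and in pDC against cDC2 2 were higher and 6 lower. In cDC2 against cDC1 6 were higher and 0 lower (7 and 2 with the replicate block, 6 and 3 without replicate 3). Rnf122, a ubiquitin ligase for RIG-I, rose in pDC over cDC1 (3.44 ± 0.13, adjusted p = 6.16e-08) and over cDC2 (2.89 ± 0.13, adjusted p = 1.57e-07). Siglecg rose in cDC2 over cDC1 (2.25 ± 0.14, adjusted p = 5.26e-06), as did the mitochondrial NLR gene Nlrx1 (0.75 ± 0.18, adjusted p = 0.0119), and Siglecg also rose in pDC over cDC1 (1.59 ± 0.14). Lrrc25 was lower in pDC than in cDC1 (-2.28 ± 0.27) and cDC2 (-2.77 ± 0.28), and so was Dak, whose product binds MDA5 (-1.47 ± 0.16 and -1.65 ± 0.16). The autophagy gene Atg5 was higher in pDC than in cDC2 (0.63 ± 0.10).

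Downstream of MAVS, 17 of 18 listed signalling genes were tested. In pDC against cDC1 3 were higher and 3 lower, in pDC against cDC2 3 higher and 6 lower, and in cDC2 against cDC1 3 higher and 1 lower (3 and 4 without replicate 3). Irf7, the interferon regulatory factor that drives interferon alpha production in pDC, was higher in pDC than in cDC1 (1.94 ± 0.25, adjusted p = 0.000124) and cDC2 (2.03 ± 0.25, adjusted p = 0.000101). Ikbke, which encodes the kinase IKK epsilon, rose in pDC as well (3.95 ± 0.40 over cDC1 and 2.86 ± 0.37 over cDC2), from means of 0.524 and 1.14 CPM to 8.21 CPM. The adaptor gene Tbkbp1 was lower in pDC (-3.69 ± 0.41 and -3.28 ± 0.40), and Tank was lower in pDC than in cDC2 (-1.49 ± 0.17). Traf3 (1.06 ± 0.32, adjusted p = 0.0386) and Traf2 (0.95 ± 0.15, adjusted p = 0.00144) rose in cDC2 over cDC1, whereas Irf5 fell (-0.61 ± 0.09, adjusted p = 0.00105) and was also lower in pDC than in cDC1 (-1.01 ± 0.09).

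Other cytosolic RNA sensors and effectors, among them the OAS enzymes and the IFIT proteins, were higher in cDC2 than in cDC1 for 10 of 18 and lower for 0, with a median log2 fold change of 2.60 against 0.027 for all genes. With the replicate block 11 were higher and 1 lower, and likewise without replicate 3. In pDC against cDC2 2 were higher and 9 lower (median -0.55), and in pDC against cDC1 8 were higher and 1 lower (median 0.70). Oas2 rose in cDC2 over cDC1 (5.21 ± 0.73, adjusted p = 0.000622), as did Ifit3 (4.50 ± 0.27, adjusted p = 4.38e-06), and both were lower in pDC than in cDC2 (-4.79 ± 0.70 and -3.41 ± 0.25). Oasl2 was higher in pDC than in cDC1 (3.62 ± 0.29) and Oasl1 higher in pDC than in cDC2 (0.97 ± 0.35, adjusted p = 0.0451), and the helicase gene Dhx33 was lower in pDC than in cDC1 (-0.73 ± 0.13). The OAS genes include close paralogs, and how reads mapping to several genes were counted is not given in the sources used here, so single values are uncertain.

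A reference list of 16 interferon-inducible genes, which shares Ifit1 with the previous list, had 9 higher and 0 lower in cDC2 against cDC1 (median log2 fold change 1.17). That count was 10 higher and 3 lower with the replicate block, and 10 and 2 without replicate 3. In pDC against cDC1 8 were higher and 0 lower (12 and 1 with the replicate block, and likewise without replicate 3), and in pDC against cDC2 3 were higher and 4 lower (6 and 6 with the block). Rtp4 (5.14 ± 0.52, adjusted p = 7.96e-05) and Ifit1 (3.71 ± 0.38, adjusted p = 8.99e-05) rose in cDC2 over cDC1 and were lower in pDC than in cDC2 (-4.40 ± 0.49 and -3.40 ± 0.37). Ifi44 was highest in pDC (3.01 ± 0.27 over cDC1 and 3.73 ± 0.28 over cDC2), Rsad2 was higher in pDC than in cDC1 (2.33 ± 0.50) and Mx2 higher in pDC than in cDC2 (1.70 ± 0.53). Summed over the list, levels were 1070 to 1198 CPM in cDC1, 1364 to 1668 CPM in cDC2 and 1523 to 1731 CPM in pDC.

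Some markers of other cells were also higher in cDC2 than in cDC1, where 12.7% of all genes were higher and 11.7% lower. Those that rose were 1 of 6 NK cell, 2 of 6 T cell, 4 of 6 monocyte and macrophage and 1 of 4 neutrophil markers. In these lists 0 fell, and the NK cell and neutrophil counts rest on 1 gene each. Of 6 erythroid markers 0 passed the test, and of 3 B cell markers tested 1 was higher and 1 lower. The neutrophil list summed to 97.7 to 119 CPM in cDC2 against 3.75 to 27.1 CPM in the other subsets, of which Mmp9 alone made a mean of 79.0 CPM in cDC2. The T cell list summed to 14.9 to 20.3 CPM in cDC1, 32.7 to 52.6 CPM in cDC2 and 71.0 to 88.7 CPM in pDC, with Cd28 at a mean of 59.1 CPM in pDC. The monocyte and macrophage list reached 2234 to 3198 CPM in pDC (186 to 298 CPM in cDC1 and 542 to 714 CPM in cDC2), with Ly6c2 at a mean of 2226 CPM. The B cell list summed lower in pDC (3.59 to 7.75 CPM) than in cDC1 (45.5 to 51.4 CPM) and cDC2 (31.2 to 34.8 CPM). Ms4a1 made most of the sum in the cDC subsets, at means of 47.6 CPM in cDC1, 29.2 CPM in cDC2 and 1.13 CPM in pDC. Of the 3 genes tested, 2 were higher in pDC than in cDC1 (Cd79a, 3.37 ± 1.09, and Fcer2a, 1.52 ± 0.39) and 1 was lower (Ms4a1). The part of these genes in the sensor results was not tested.

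AIM2-like receptors, the PYHIN proteins encoded near Aim2, were listed under 11 of 18 names and tested for 10. In cDC2 against cDC1 5 were higher and 2 lower, in pDC against cDC1 4 higher and 2 lower, and in pDC against cDC2 2 higher and 3 lower (3 and 5 without replicate 3). Ifi205 was highest in cDC1, at a mean of 499 CPM, and was lower in cDC2 (log2 fold change -3.08 ± 0.34) and in pDC (-6.38 ± 0.40). Mnda was also lower in cDC2 (-2.15 ± 0.27) and pDC (-2.73 ± 0.28) than in cDC1. Ifi203 ran the other way, with 2.14 ± 0.10 in cDC2 and 2.86 ± 0.11 in pDC over cDC1, and Mndal was higher in pDC than in cDC1 (2.46 ± 0.22) and cDC2 (0.61 ± 0.21). Pydc4 was highest in cDC2 (3.53 ± 0.37 over cDC1, and pDC against cDC2 -1.74 ± 0.33). Close paralogs make the single values of this family uncertain too.

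Among 10 partners and products of the inflammasomes, 4 were higher and 0 lower in cDC2 against cDC1, 1 was higher and 6 lower in pDC against cDC2, and 3 were higher and 4 lower in pDC against cDC1. Casp1, the gene for the protease that the AIM2 inflammasome activates, rose in cDC2 over cDC1 (1.59 ± 0.12, adjusted p = 1.76e-05), as did Nlrc4 (2.29 ± 0.67, adjusted p = 0.0330). The cytokine genes Il1b (-4.14 ± 0.35 against cDC1 and -5.54 ± 0.37 against cDC2) and Il18 (-2.49 ± 0.20 against cDC1) were lower in pDC, and so was Nlrc4 against cDC2 (-3.84 ± 0.73). Pycard, which encodes the adaptor ASC, was higher in pDC (0.63 ± 0.11 over cDC1 and 0.50 ± 0.11 over cDC2), as was Nek7 over cDC1 (0.80 ± 0.22).

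Of 7 partners of ZBP1, 0 were higher and 2 lower in cDC2 against cDC1, 1 was higher and 2 lower in pDC against cDC1, and 0 were higher and 2 lower in pDC against cDC2 (2 and 2 without replicate 3). Ripk3, the kinase gene of necroptosis, was highest in cDC1, at -0.89 ± 0.15 in cDC2 (adjusted p = 0.00192) and -1.68 ± 0.15 in pDC (adjusted p = 1.25e-05), and was lower in pDC than in cDC2 (-0.80 ± 0.15). Casp6 was lower in cDC2 (-1.64 ± 0.14) and pDC (-1.63 ± 0.14) than in cDC1. Adar, whose product edits double-stranded RNA, was higher in pDC than in cDC1 (0.62 ± 0.19), and Fadd was lower in pDC than in cDC2 (-0.47 ± 0.17, adjusted p = 0.0480). The level of Zbp1 and those of Ripk3 and Casp6 thus stood highest in different cDC subsets.

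Of 9 other candidate DNA sensors, 2 were higher and 0 lower in cDC2 against cDC1 (4 and 0 with the replicate block), 3 were higher and 2 lower in pDC against cDC1, and 2 were higher and 3 lower in pDC against cDC2 (2 and 6 with the block). Xrcc6 (Ku70) rose in pDC (1.10 ± 0.11 over cDC1 and 0.94 ± 0.11 over cDC2), as did Hmgb1 (0.95 ± 0.21 and 0.58 ± 0.21), whereas Hmgb2 fell (-2.34 ± 0.21 and -2.42 ± 0.21). Prkdc (0.71 ± 0.21) and Xrcc5 (2.14 ± 0.52) were higher in cDC2 than in cDC1, Xrcc5 was lower in pDC than in cDC2 (-1.73 ± 0.50), and Mre11a was lower in pDC than in cDC1 (-0.37 ± 0.12).

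RNA polymerase III, which can transcribe cytosolic AT-rich DNA into a ligand of RIG-I, was read through 11 subunit genes. In cDC2 against cDC1 1 was higher and 0 lower (2 and 1 with the block, 1 and 1 without replicate 3), in pDC against cDC1 3 were higher and 3 lower, and in pDC against cDC2 3 were higher and 0 lower (3 and 4 with the block, 4 and 3 without replicate 3). Polr3gl rose in pDC (2.72 ± 0.26 over cDC1 and 1.96 ± 0.25 over cDC2) and in cDC2 over cDC1 (0.76 ± 0.25, adjusted p = 0.0497), whereas its paralog Polr3g was lower in pDC than in cDC1 (-1.04 ± 0.25). Polr3b was higher in pDC than in cDC1 (0.85 ± 0.13), and Crcp was lower in pDC than in cDC1 (-0.67 ± 0.15).

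**Figure D5:**
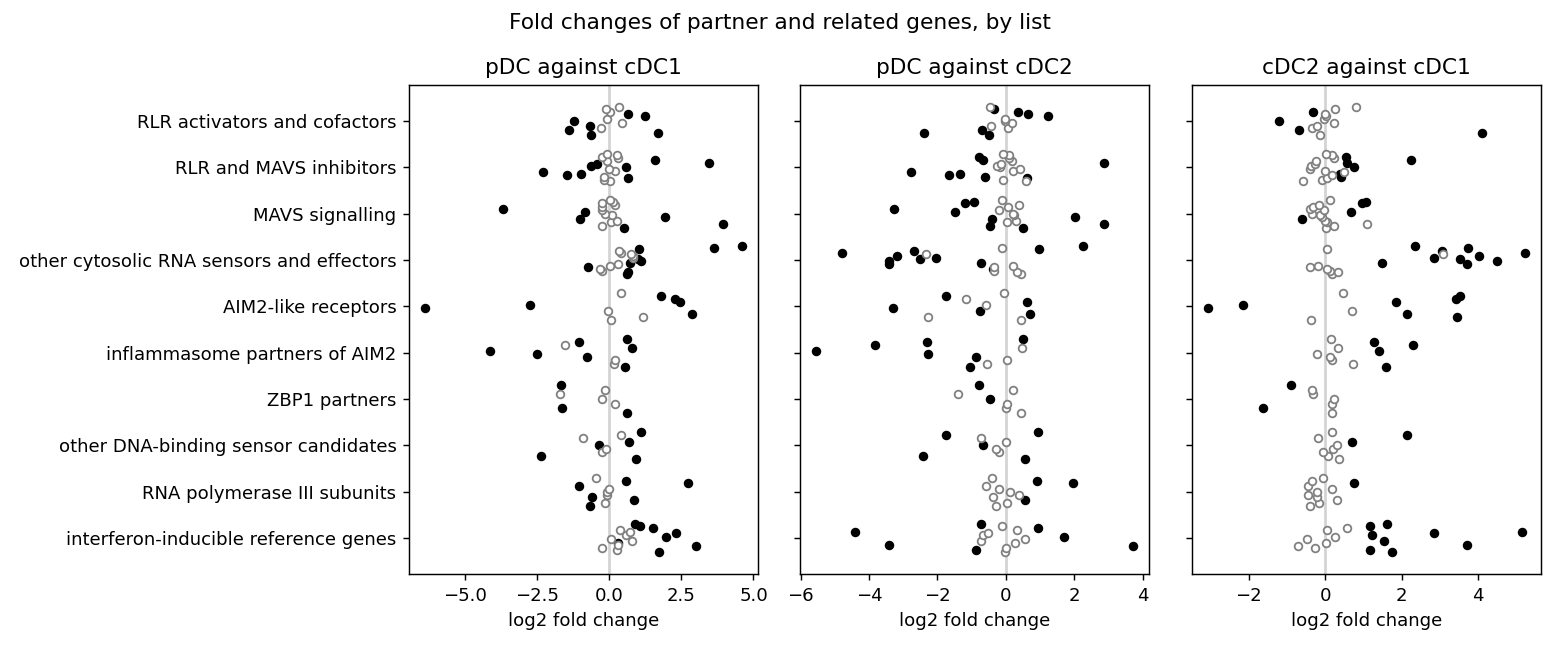
Each point is a gene of the list named on the vertical axis, at its fitted log2 fold change (scales differ between panels). Filled points have an adjusted p under 0.05, and the vertical offset within a list has no meaning. In cDC2 against cDC1, the filled points of the other cytosolic RNA sensors (10 of 18) all lie to the right of 0. Of all genes, 12.7% were called higher there.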

How the data were processed

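The authors deposited raw counts of reads per gene, not normalized, for 9 libraries made with a stranded mRNA kit and read as single ends of 75 bases. Their processing notes name STAR, SAMtools, featureCounts and MultiQC and the mm10 build. Versions, annotation, strand setting and the handling of reads with several matches are not given in the sources used here, and the paper names Degust without its statistical method.

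Groups and replicate numbers came from the labels, and every column of sample values was used. The members, the gene lists (10 pathway lists and 9 marker lists) and the tests were chosen with earlier results of these data known. Genes were kept by filterByExpr (minimum count 10, 13819 genes), scaled by TMM and fitted over all 9 libraries with the subset as the only term, and each contrast was put to the quasi-likelihood test of edgeR 4.0.16 (R 4.3.3), with Benjamini-Hochberg adjustment over all genes at 0.05. Standard errors were the absolute log2 fold change over the square root of F. P-values measure the spread between 3 pooled preparations per subset. Counts of any pair of replicates differed beyond sampling noise (chi-square per degree of freedom of 9.93 or more), so no library was merged with another.

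Same-numbered libraries carry the same date code, and their deviations from the subset means correlated at 0.266 to 0.543 in every pair, so the numbers paired the libraries. Alternatives were the replicate block, DESeq2 1.42.0, limma-voom (limma 3.58.1), other scalings and filters, fits of 6 libraries, a fold threshold and libraries left out. For the counts by list, the block and leaving out replicate 3 were added after the data were seen. Their counts are not given for every list and comparison.

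Lengths and positions came from GENCODE M21 (GRCm38). No stretch of 75 bases of 7 members occurs in the transcripts of another gene, and the shares were 2.13% for Dhx58 (Dhx58os) and 8.77% for Ddx41 (Gm46416), on the opposite strand. Named genes were all members, the genes most like each member among those with a mean of at least 100 counts, the sort markers, and per list and comparison up to 2 called genes with the largest rise and 2 with the largest fall, where the higher subset averaged 100 counts or more. Genes named outside this rule (Cd3e, Cd5, Ly6g, S100a9, Mmp9, Cd28, Ly6c2, Ms4a1, Cd79a, Fcer2a, Irf8, Cd4) were chosen after their values were seen. Some genes the rule would name are not reported here. Figures were drawn with matplotlib 3.10.9.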

Additional observations from a re-analysis of the deposited data

How the results depend on the processing

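Over 19 alternatives for each of 27 member comparisons, 460 values kept their direction and side of the threshold, 17 changed sign without passing it (11 of them Ifih1 in pDC against cDC1), 13 fell below it, 22 rose past it and 1 turned sign while past it. In pDC against cDC1, members called numbered 1 in the main fit, 4 with the replicate block, 3 with DESeq2, 2 with library size only, 2 with upper quartile factors, 2 with no filter, 0 with RLE size factors, 0 with at least 10 counts in every library, 0 with only the 6 libraries compared, and 0 to 6 with libraries left out (6 without replicate 3, 3 without pDC replicate 3). All genes called there made up 48.6% in the main fit, 58.6% with the block, 51.8% with DESeq2, 31.0% with no filter, 49.8% without pDC replicate 3 and 63.0% without replicate 3. The share was 49.3% with library size only, 48.3% with upper quartile factors and 48.4% with RLE size factors. It was 50.02% with at least 10 counts in every library and 48.1% with only the 6 libraries compared. For the counts by list, the shares of all genes called were 55.5% with the block and 59.8% without replicate 3 in pDC against cDC2, and 35.6% and 37.7% in cDC2 against cDC1. The value that turned was Ifih1 in pDC against cDC1, from 0.0032 to -0.25 without replicate 3, with a range of -0.25 to 0.099 over alternatives. When calls also had to reach a log2 fold change of 1 in size, members called were 0 in pDC against cDC1, 3 in pDC against cDC2 and 3 among the subsets. Genes called were 4063, 3837 and 5059 of the 13819 tested. In cDC2 against cDC1 the members called were Ddx58, Ifih1 and Zbp1, with 1812 genes called. Genes called in cDC2 against cDC1 were 3370, and 2451 to 5356 with libraries left out, the highest without replicate 3. The replicate block changed no member call beyond those given in the results. Taking the union of annotated exons as the length kept 14 of the 27 ranks of members within subsets. The cause of these changes was not tested. Ddx58 in cDC1 rests on 38 to 162 reads per library, where depth limits precision most, and with 3 libraries per subset a p that misses the threshold does not show that levels are alike.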
